A study of Mus musculus with 12 samples.

Results

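The mouse proteasome genes were followed through MYC-driven T-cell lymphoma, with the constitutive subunits set against the immunoproteasome subunits that can replace them. The genes were taken by name: every probe set with a single gene symbol beginning with Psm, a letter from a to g and a digit was kept, and a gene with several probe sets was represented by the one with the highest mean over all 12 arrays. This gave 50 of the 19309 genes measured. Of these, 48 encode proteasome subunits, activators, inhibitors or assembly chaperones, and 2 (Psmc3ip and Psme3ip1) matched the name pattern only and encode proteins that are not subunits.

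The samples, all from thymus on the FVB/N background, were hybridised as total RNA, 1 per array, and form 3 groups. Normal thymocytes (n = 3) were wild-type and taken at 24 dpn, as the labels write the age. Control tumors (n = 5, labelled wild-type) and Dnmt3a-deficient tumors (n = 4) were tumor thymocytes at an age labelled only as terminal. Per the series' design text, Dnmt3a, which encodes a DNA methyltransferase, was deleted in the blood-forming compartment in the presence of MYC, so the tumors differ from the normal thymocytes in MYC and in age as well as in malignancy. The promoter that drives MYC and the means of the deletion are not stated in the labels. Whether replicates came from separate animals is not stated either, so a p-value here reflects only the spread among the samples of a group, which may be technical.

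The proteasome is the protease that degrades ubiquitin-tagged proteins. Its core is a barrel of outer alpha rings and inner beta rings, and 3 beta subunits (Psmb5, Psmb6 and Psmb7) carry the active sites. The 19S regulatory particle caps the core, with a base of ATPases that unfold substrates and a lid that removes ubiquitin. Interferon gamma induces the alternative catalytic subunits Psmb8, Psmb9 and Psmb10, which take the places of Psmb5, Psmb6 and Psmb7, and the 11S activator subunits Psme1 and Psme2, and this immunoproteasome favours peptides that fit MHC class I. Lymphoid cells carry it without infection, and cortical thymic epithelium has its own catalytic subunit, Psmb11.

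Promoter sequence is shown for 4 places to which the results below refer. The first is the whole stretch between the divergent start sites of Psmb9 and Tap1, since Psmb9 was lower in both kinds of tumor and Tap1, the peptide transporter, was too. Psmb8, the neighbouring immunoproteasome gene, did not pass the test. Psmb5 is the catalytic subunit whose level differed most among control tumors, and Psmc6 is the base ATPase with the largest rise. All are from RefSeq with build GRCm38.p6, written 5′ to 3′ on the strand of the named gene (of Psmb9 in the first), and each ends at the base before the transcription start. Capitals mark a GC box (GGGCGG) and a CCAAT box read on the other strand (ATTGG) in the interval, the core of an interferon gamma activated site (TTCNNNGAA) in Psmb8, the core of an antioxidant response element (TGACNNNGC) in Psmb5, and the same core read on the other strand followed by an ETS site (CCGGAAG) in Psmc6. The interval lies at chr17:34187331-34187555 (minus strand), the Psmb8 window at chr17:34197945-34198194 (plus), the Psmb5 window at chr14:54617996-54618245 (minus) and the Psmc6 window at chr14:45329574-45329823 (plus).
Psmb9-Tap1 interval: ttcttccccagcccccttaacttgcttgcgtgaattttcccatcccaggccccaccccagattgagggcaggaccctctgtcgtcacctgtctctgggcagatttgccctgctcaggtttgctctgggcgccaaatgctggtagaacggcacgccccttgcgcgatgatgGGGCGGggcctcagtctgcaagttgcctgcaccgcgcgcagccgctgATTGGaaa
Psmb8: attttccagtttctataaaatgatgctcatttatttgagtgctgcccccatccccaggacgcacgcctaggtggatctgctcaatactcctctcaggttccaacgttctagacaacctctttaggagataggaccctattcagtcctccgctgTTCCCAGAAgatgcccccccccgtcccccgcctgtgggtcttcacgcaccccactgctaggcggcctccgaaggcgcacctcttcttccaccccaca
Psmb5: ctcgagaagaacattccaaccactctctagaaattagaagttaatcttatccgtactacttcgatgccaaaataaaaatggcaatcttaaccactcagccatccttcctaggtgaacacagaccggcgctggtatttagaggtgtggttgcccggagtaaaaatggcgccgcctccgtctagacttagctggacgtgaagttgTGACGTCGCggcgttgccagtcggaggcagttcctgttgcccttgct
Psmc6: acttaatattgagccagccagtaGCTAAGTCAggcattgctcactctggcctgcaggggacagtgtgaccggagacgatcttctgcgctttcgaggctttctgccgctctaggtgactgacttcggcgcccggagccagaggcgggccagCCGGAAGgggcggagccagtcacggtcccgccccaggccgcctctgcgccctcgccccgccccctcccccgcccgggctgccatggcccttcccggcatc

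Short motifs were searched on both strands in the 250 bases before the start, and overlapping matches of different motifs were each counted. Of the 50 genes, 42 had an entry, in 46 windows. The antioxidant response element core, which NRF1 and NRF2 recognise, was in 10.9% of the proteasome windows (those of Psmb5, Psmb6, Psmc6, Psmd9 and Psmd12) and in 10.2% of all 32851 windows. The interferon gamma activated site core was in 4.35% (Psmb8 and Psmg1) against 7.02% of all windows. The core of the interferon-stimulated response element (GAAANNGAA) was in 6.52% against 7.13%. With 1 more A at its end it was in the same 3 genes (Psmb3, Psmd4 and Psmd9) and in 2.98% of all windows. The E-box (CACGTG), the motif that MYC recognises, was in 10.9% against 6.02%, among them the window of Psmb10. A CCAAT box (CCAAT) was in 34.8% against 33.8%, a GC box in 52.2% against 32.7%, and an ETS site in 30.4% against 6.91%. These are counts of letters in a window and show no binding. The genes Psma8, Psmb1, Psmb2, Psmb7, Psmc3, Psmd3, Psmd7 and Psmg2 had no entry.

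Values are log2 expression, so a difference of 1 is a 2-fold change, and a gene was called when its adjusted p was under 0.05 (limma, Benjamini-Hochberg over all 19309 genes). Dnmt3a averaged 9.48 ± 0.15 (SD, n = 3) in normal thymocytes, 8.67 ± 0.53 (n = 5) in control tumors and 7.42 ± 0.20 (n = 4) in deficient tumors, and the 4 deficient tumors were the lowest 4 arrays. The T-lineage marker list averaged 10.91 to 11.02 in normal thymocytes, 9.97 to 10.24 in control tumors and 9.18 to 10.21 in deficient tumors. Against normal thymocytes, 5 of its 9 genes were called lower in control tumors, where 11.3% of all genes were. In deficient tumors 6 of the 9 were called lower, where 19% of all genes were. The arrays fell apart in 1 respect that touches many results. The 75th percentile of all values was 8.502 to 8.598 in the 4 deficient tumors and in control tumors 1 and 2, and 8.13 to 8.30 in the 3 normal thymocytes and in control tumors 3, 4 and 5. No label names this as a batch. Every deficient tumor is on one side and every normal thymocyte sample on the other, so for that comparison it cannot be told apart from the group. Control tumors are on both sides, so proteasome genes were refitted without control tumors 1 and 2, and with the side as a block. Values are given below where a call against normal thymocytes was ended by these refits. A fit without control tumors 3, 4 and 5 was run only for deficient against control tumors. Leaving out control tumors 3 and 4 ended the calls of Psma5, Psmb1 and Psmd9 in control tumors and of Psmb9 in deficient tumors. The genes outside the name rule were not refitted in this way. In the block fit, the effect of the side comes only from control tumors 1 and 2 against 3, 4 and 5. A block value of deficient against normal samples is thus the plain difference less that gap, and cannot tell side from group. In bulk RNA, fewer cells of a type and less RNA per cell cannot be told apart.

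In control tumors, the constitutive core and 19S genes that were called were higher than in normal thymocytes with 1 exception, and the interferon-inducible genes that were called were lower. Of the 50 genes, 23 were called, 19 higher and 4 lower, against 24.4% of all genes called (13.0% higher and 11.3% lower). The median difference over the 50 was 0.30, beside -0.08 over all genes. All control tumors lay above all normal samples in 21 of the 50 and below them in 7, where 13.8% and 14% of all genes did so (27.7% in either direction). The 14 constitutive core subunits had 7 higher and none lower (median 0.59). The 17 subunits of the 19S particle that the name rule matched had 7 higher and 1 lower (median 0.27). The 5 immunoproteasome and 11S genes had none higher and 2 lower (median -0.41). In deficient tumors against the same normal thymocytes, 30 of the 50 were called, 24 higher and 6 lower, where 37.6% of all genes were called (18.7% higher and 19% lower). The median was 0.45 beside -0.10 over all genes. All deficient tumors lay above all normal samples in 25 of the 50 and below them in 10, where 23.0% and 26.7% of all genes did so (49.7% in either direction). There the core had 10 higher and 1 lower (median 0.73), the 19S particle 6 higher and 3 lower (median 0.17) and the immunoproteasome and 11S genes none higher and 2 lower (median -0.31). The split into higher and lower moved with the scaling of the arrays. It was 15 and 8 for control tumors and 18 and 11 for deficient tumors after a second quantile normalization, and 11 and 8 and 16 and 11 after cyclic loess. Both comparisons use the same 3 normal samples, so their likeness is not independent.

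**Figure D1:**
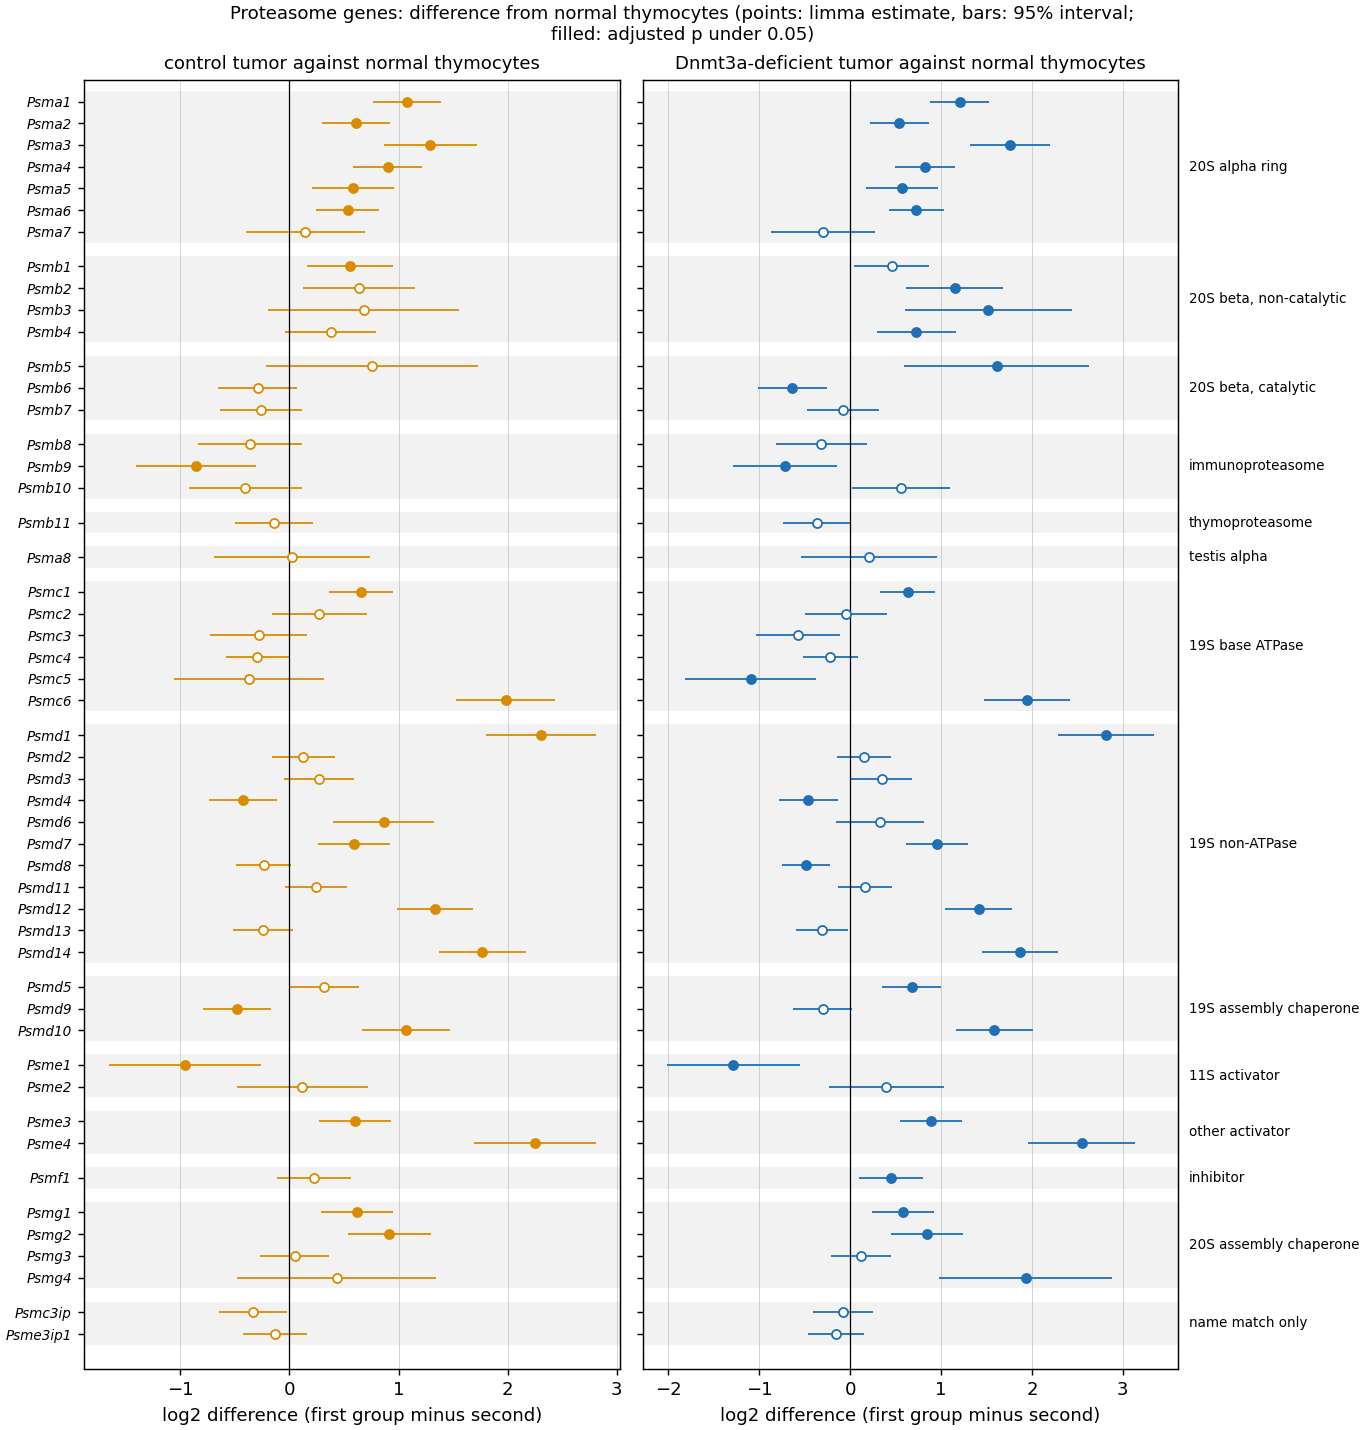
Difference of group means on the log2 scale (x axis) for each of the 50 genes (y axis, ordered by role) in the comparisons named on the panels, with filled points for called genes. Psmd1 and Psme4 stand furthest to the right in both tumor groups, and Psme1 is the lowest point in both.

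Among the alpha subunits, which form the gate of the core, 6 of 7 were higher in both tumor groups. The exception was Psma7, at 0.15 in control tumors (adjusted p = 0.722) and -0.30 in deficient tumors (adjusted p = 0.4). Psma3 was 9.11, 8.47 and 8.74 in the normal samples, 9.91, 9.98, 10.45, 10.17 and 9.83 in control tumors and 10.23, 10.89, 10.43 and 10.58 in deficient tumors. Every tumor lay above every normal sample. The rise was 1.29 (SE 0.196, adjusted p = 0.000332) in control and 1.76 (SE 0.205, adjusted p = 2.92e-05) in deficient tumors, and the other probe sets of Psma3 rose as well. Psma1 was 9.24, 9.03 and 9.30 in normal samples, 10.08 to 10.57 in control tumors and 10.18 to 10.53 in deficient tumors, a rise of 1.08 and 1.20. Psma2, Psma4, Psma5 and Psma6 rose by 0.54 to 0.90 in control and by 0.54 to 0.82 in deficient tumors. Psma4 kept its calls under both further normalizations, while others of these smaller rises depended on the scaling. After the second quantile and the cyclic loess normalization, Psma2 in deficient tumors lost its call (0.24 and 0.21). Psma5 in deficient tumors lost its call after both as well (0.26 and 0.23). In control tumors Psma5 lost its call after both (0.41 and 0.40), and Psma2 and Psma6 after cyclic loess (0.42 and 0.31). With the 75th percentile as a block Psma6 was at 0.58 in deficient tumors (adjusted p = 0.0676). A second probe set of Psma5 missed the threshold in both (0.60, adjusted p = 0.0741, and 0.40, adjusted p = 0.206). Psma8, the testis form, sat at 4.90 to 6.59 on all arrays and was not called.

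Of the 4 beta subunits without active sites, 1 was called higher in control tumors and 3 others in deficient tumors, and they were uneven over the control tumors. Psmb1 rose by 0.56 in control tumors (adjusted p = 0.0429), a call lost in several alternatives, including both further normalizations. Psmb3, a structural subunit, read 10.94, 10.75 and 10.37 in normal samples, 12.25, 12.52, 10.56, 10.82 and 10.67 in control tumors and 11.95, 12.31, 12.30 and 12.26 in deficient tumors. Control tumors 1 and 2 thus sat with the deficient tumors, and control tumors 3, 4 and 5 with the normal samples. Psmb2, Psmb3 and Psmb4 were called in deficient tumors (1.15, 1.52 and 0.73) and not in control tumors, and none of the 3 kept its call with the 75th percentile as a block, where Psmb2 was at 0.25, Psmb4 at 0.12 and Psmb3 turned to -0.18 (adjusted p = 0.698).

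The constitutive catalytic subunits went different ways. Psmb5, the chymotrypsin-like subunit, measured 9.68, 9.85 and 9.71 in normal samples. In control tumors it was 11.50, 11.75, 9.68, 9.89 and 9.72, and in deficient tumors 10.85, 11.21, 11.72 and 11.66. The values in control tumors 3, 4 and 5 lay within or beside the normal range, and those in control tumors 1 and 2 lay at the level of the deficient tumors. Psmb5 was 1.61 higher in deficient tumors (SE 0.470, adjusted p = 0.0163) and 0.76 higher in control tumors (adjusted p = 0.251). Without control tumors 1 and 2 the second difference was 0.01, and with the 75th percentile as a block the first was -0.25 (adjusted p = 0.65). Whether the array property or the tumors themselves carry this was not tested.

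Psmb6, the caspase-like subunit, was 10.55, 10.68 and 10.22 in normal samples, 9.96, 10.13, 10.22, 10.38 and 10.25 in control tumors and 9.50, 9.82, 10.15 and 9.92 in deficient tumors. All deficient tumors lay below all normal samples. The difference was -0.63 (SE 0.174, adjusted p = 0.012) in deficient and -0.29 (adjusted p = 0.233) in control tumors, and the first was -0.40 (adjusted p = 0.342) with the block. Psmb7, the trypsin-like subunit, was 10.21, 9.88 and 10.42 in normal samples, 9.50, 9.85, 10.29, 9.86 and 10.04 in control tumors and 10.01, 10.14, 10.10 and 10.11 in deficient tumors. The 3 groups overlapped, with differences of -0.26 and -0.08.

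Of the 3 immunoproteasome subunits, none was called higher in either tumor group and Psmb9 was called lower in both. Psmb8 was 10.40, 10.14 and 9.95 in normal samples, 9.32, 9.81, 9.61, 10.14 and 10.14 in control tumors and 9.44, 10.26, 9.91 and 9.80 in deficient tumors. The groups overlapped, and neither difference passed (-0.36 with a 95% interval of -0.84 to 0.11, and -0.31 with an interval of -0.81 to 0.18). Psmb9 was 9.69, 9.73 and 9.59 in normal samples, 8.08, 8.78, 8.91, 9.14 and 9.15 in control tumors and 8.45, 9.48, 8.83 and 9.05 in deficient tumors. Every tumor of both kinds was below every normal sample. Psmb9 fell by 0.85 on the log2 scale in control tumors (SE 0.254, adjusted p = 0.0261), which is 1.81-fold, and by 0.71 in deficient tumors (SE 0.266, adjusted p = 0.0492). The first call was lost when any 1 of the 3 normal samples was left out, and was -0.60 (adjusted p = 0.0641) without control tumors 1 and 2. The second was lost when any 1 of 9 arrays was left out, the normal samples among them, and with the block it was -0.08 (adjusted p = 0.917).

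Psmb10 was the immunoproteasome gene that separated the tumors from each other. It was 9.18, 9.51 and 8.73 in normal samples, 8.76, 9.34, 8.39, 8.27 and 8.90 in control tumors and 9.49, 9.94, 9.58 and 9.80 in deficient tumors. All deficient tumors lay above all control tumors, and both overlapped the normal range. Psmb10 was 0.97 above control tumors (SE 0.220, 95% interval 0.49 to 1.44), 1.96-fold, with an adjusted p of 0.061 that missed the threshold. The difference was 1.18 (adjusted p = 0.00185) without control tumors 1 and 2 and 0.65 (adjusted p = 0.352) without control tumors 3, 4 and 5. Against normal samples Psmb10 was at -0.41 in control tumors (adjusted p = 0.25) and at 0.56 in deficient tumors (adjusted p = 0.0944).

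**Figure D2:**
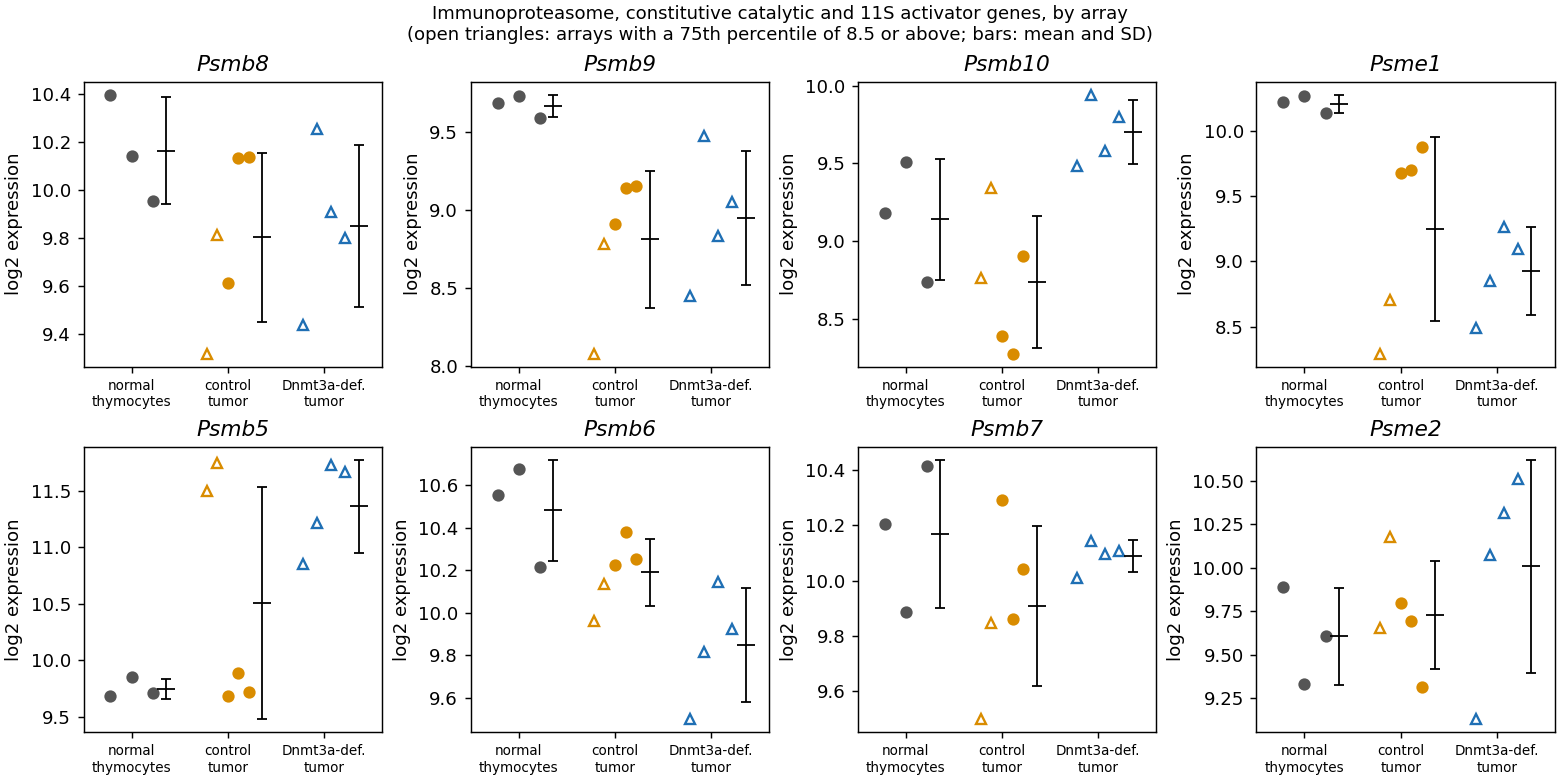
Log2 expression (y axis) of the catalytic and 11S genes on each of the 12 arrays, by group (x axis), with bars for the mean and SD and open triangles for arrays with a 75th percentile of 8.5 or above. Psmb5 in control tumors splits into 2 arrays at 11.50 and 11.75 and 3 at 9.68 to 9.89, while Psmb9 lies below the normal samples on all 9 tumor arrays.

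The 11S subunits, which open the core to release peptides, differed from each other. Psme1 was 10.22, 10.27 and 10.13 in normal samples, 8.29, 8.71, 9.68, 9.70 and 9.87 in control tumors and 8.49, 8.85, 9.26 and 9.10 in deficient tumors. All 9 tumors were below all 3 normal samples, and the lowest 2 control tumors were control tumors 1 and 2. Psme1 was -0.96 in control (SE 0.324, adjusted p = 0.047) and -1.28 in deficient tumors (SE 0.339, adjusted p = 0.00971). The call in control tumors was lost when any 1 normal sample, control tumor 1 or 2, or deficient tumor 2, 3 or 4 was left out, and the one in deficient tumors held in all 12. The call in control tumors was also lost with each array centred on its median (adjusted p = 0.053) and with only the 2 groups in the fit (adjusted p = 0.0829). Without control tumors 1 and 2 the first was -0.46 (adjusted p = 0.0961), and with the block the second was -0.03 (adjusted p = 0.96). Psme2 was 9.89, 9.33 and 9.61 in normal samples, 9.65, 10.18, 9.80, 9.70 and 9.31 in control tumors and 9.13, 10.08, 10.32 and 10.51 in deficient tumors. The groups overlapped. The differences of Psme2 were 0.12 and 0.40, and its sign in control tumors turned negative after both further normalizations (-0.01 and -0.08). Psmb11, the thymic epithelial subunit, was at 5.73 to 6.40 on all arrays and was not called. The thymic epithelium marker list, which includes Psmb11, averaged 6.96 to 7.16 in normal samples, 6.20 to 6.47 in control tumors and 6.45 to 6.94 in deficient tumors. Its part in the differences of Psmb9 and Psme1 was not tested.

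The replacement of catalytic subunits was compared as the log2 value of each inducible subunit minus that of the subunit it replaces, array by array. The probe sets differ in brightness, so the level of such a difference has no meaning and only its change between groups was read. None of the 9 tests (3 pairs in 3 comparisons, exact two-sided permutation tests over samples) passed after adjustment over the 9. The smallest p possible was 0.0179 for control and 0.0286 for deficient tumors against normal samples, and 0.00794 between the tumor groups. A test at such a limit could pass only if other tests had small p-values too. Missing the threshold thus does not show that a pair was unchanged. For Psmb8 minus Psmb5 the normal samples were at 0.72, 0.29 and 0.24, the control tumors at -2.18, -1.94, -0.07, 0.25 and 0.42 and the deficient tumors at -1.41, -0.95, -1.81 and -1.86. The deficient tumors were lower than the normal samples with no overlap, by 1.93 (difference -1.93, exact permutation p = 0.0286, the smallest that 35 splits allow, adjusted 0.129). Control tumors spanned both levels (difference -1.12, exact permutation p = 0.196).

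For Psmb9 minus Psmb6 the normal samples were at -0.87, -0.95 and -0.63, the control tumors at -1.88, -1.35, -1.31, -1.24 and -1.10, and the deficient tumors at -1.05, -0.34, -1.31 and -0.87. Control tumors lay below normal samples with no overlap (difference -0.56, exact permutation p = 0.0179, the smallest that 56 splits allow, adjusted 0.129). Deficient tumors overlapped the normal samples (difference -0.08, exact permutation p = 0.743). For Psmb10 minus Psmb7 the normal samples were at -1.03, -0.38 and -1.68, the control tumors at -0.74, -0.51, -1.90, -1.59 and -1.14, and the deficient tumors at -0.52, -0.20, -0.52 and -0.31. The deficient tumors were 0.79 above control tumors (exact permutation p = 0.0556, adjusted 0.154). Control tumors 1 and 2 were the nearest to them, and without control tumors 3, 4 and 5 the difference was 0.24.

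**Figure D3:**
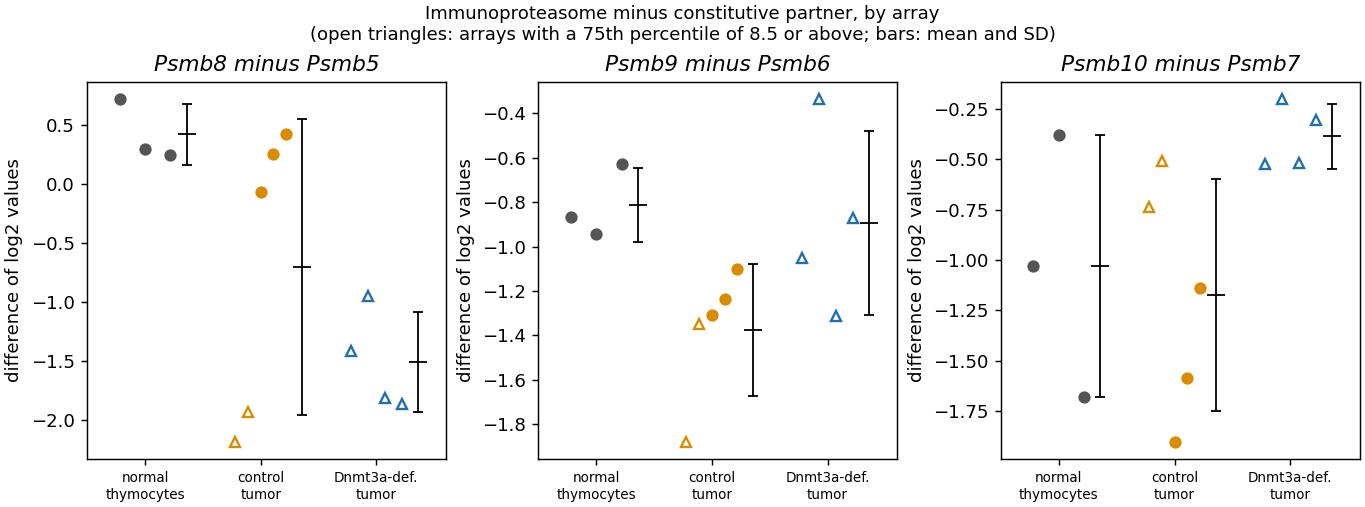
Log2 value of each immunoproteasome subunit minus that of its constitutive counterpart (y axis) on each array by group (x axis), with bars for the mean and SD and open triangles for arrays with a 75th percentile of 8.5 or above. For Psmb8 minus Psmb5, control tumors 1 and 2 lie at -2.18 and -1.94 and the other 3 control tumors lie at -0.07 to 0.42, near the normal samples.

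The largest rises of the 19S particle were in a few subunits of the base and lid. Psmd1, a scaffold of the base, was 8.28, 8.12 and 8.72 in normal samples, 11.01, 11.28, 10.56, 10.40 and 10.15 in control tumors and 11.01, 11.33, 11.17 and 11.26 in deficient tumors. All tumors stood more than 1 unit above all normal samples. The rise was 2.30 (SE 0.234, adjusted p = 1.66e-05), 4.93-fold, in control tumors and 2.81 (SE 0.245, adjusted p = 3.29e-06), 7.03-fold, in deficient tumors. It was 1.99 in control tumors without control tumors 1 and 2, and 2.04 in deficient tumors with the block. Psmc6, a base ATPase, was 7.59, 6.94 and 7.89 in normal samples, 9.30, 9.39, 9.84, 9.43 and 9.32 in control tumors and 9.14, 9.37, 9.46 and 9.69 in deficient tumors. The tumor groups overlapped each other and neither touched the normal range, with rises of 1.98 (SE 0.210, adjusted p = 2.29e-05) and 1.94 (SE 0.219, adjusted p = 2.31e-05).

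Psmd14, the lid enzyme that removes ubiquitin chains, was 8.97, 8.34 and 9.16 in normal samples, 10.44, 10.71, 10.81, 10.63 and 10.37 in control tumors and 10.52, 10.65, 10.90 and 10.68 in deficient tumors. It rose by 1.77 (SE 0.184, adjusted p = 2.06e-05) and by 1.86 (SE 0.193, adjusted p = 1.2e-05), and again the tumor groups overlapped and the normal samples stood apart below them. Psmd12, a lid subunit, rose by 1.34 and 1.41 and Psmd7, the partner of Psmd14 in the lid, by 0.59 and 0.95. The call of Psmd7 in control tumors was lost after both further normalizations (0.42 and 0.39). Psmd6 rose by 0.86 in control tumors (adjusted p = 0.00959), with an adjusted p of 0.0522 after cyclic loess, and was at 0.33 in deficient tumors (adjusted p = 0.272). Among the other ATPases Psmc1 rose by 0.66 and 0.63, though in deficient tumors its second probe set was at 0.12 (adjusted p = 0.606) and the call was lost after cyclic loess (0.33). Psmc2, Psmc3 and Psmc4 were not called in either.

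A few 19S subunits were called lower, 1 of 17 in control tumors and 3 of 17 in deficient tumors. Of all genes 11.3% and 19% were called lower, so neither count is above the share of all genes. Psmc5, a base ATPase, was 9.84, 9.96 and 10.04 in normal samples, 8.86, 8.71, 10.18, 10.19 and 9.95 in control tumors and 8.65, 8.80, 9.02 and 8.96 in deficient tumors. Control tumors 1 and 2 lay at the level of the deficient tumors and the other 3 at that of the normal samples. Its difference was -1.09 in deficient tumors (SE 0.334, adjusted p = 0.0205) and -0.37 in control tumors (adjusted p = 0.442), and the first turned to 0.23 (adjusted p = 0.513) with the block. Psmd4, a ubiquitin receptor, was 9.67, 9.48 and 9.25 in normal samples, 8.88, 9.04, 9.25, 9.11 and 8.95 in control tumors and 8.80, 8.98, 9.03 and 9.21 in deficient tumors. The fall was 0.42 (difference -0.42, adjusted p = 0.0492) and 0.46 (difference -0.46, adjusted p = 0.0296). It was -0.36 (adjusted p = 0.122) without control tumors 1 and 2 and -0.31 (adjusted p = 0.399) with the block. With 1 array left out, the call of Psmd4 held in 2 of 12 fits in control tumors and in 7 of 12 in deficient tumors. Psmd8, a lid subunit, was 10.62, 10.60 and 10.73 in normal samples, 10.46, 10.33, 10.55, 10.39 and 10.33 in control tumors and 10.02, 10.18, 10.29 and 10.15 in deficient tumors. The 3 groups did not overlap, and of the 3 differences only the difference of deficient tumors from normal samples passed (-0.49, adjusted p = 0.00761), with -0.46 (adjusted p = 0.11) under the block.

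The assembly chaperones and the other regulators held some of the largest differences. Psme4, the PA200 activator, was 7.28, 6.37 and 7.48 in normal samples, 9.67, 9.72, 9.30, 9.02 and 8.77 in control tumors and 9.57, 9.48, 9.66 and 9.67 in deficient tumors. It rose by 2.25 (SE 0.259, adjusted p = 4.11e-05) and 2.54 (SE 0.271, adjusted p = 1.45e-05), and by 1.98 without control tumors 1 and 2. Psme3, the nuclear activator, rose by 0.60 and 0.89, but was at 0.38 in control tumors after cyclic loess (adjusted p = 0.0813) and at 0.44 in deficient tumors with the block (adjusted p = 0.113). Psmd10, a 19S chaperone also called gankyrin, was 7.40, 7.90 and 7.72 in normal samples, 8.95, 9.06, 8.92, 8.41 and 8.36 in control tumors and 9.12, 9.20, 9.31 and 9.41 in deficient tumors. The 3 groups did not overlap, and the rises were 1.06 (adjusted p = 0.00099) and 1.58 (adjusted p = 4.6e-05). Psmd5, a 19S chaperone, was called in deficient tumors (0.68), and with the block it was at 0.53 (adjusted p = 0.132).

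Psmd9, another 19S chaperone, was lower: it was 8.53, 8.43 and 8.38 in normal samples, 7.65, 8.01, 8.10, 7.88 and 8.21 in control tumors and 8.001, 8.09, 8.26 and 8.25 in deficient tumors. The fall was 0.48 in control tumors (difference -0.48, adjusted p = 0.027), and the difference was -0.39 (adjusted p = 0.0639) without control tumors 1 and 2 and -0.30 (adjusted p = 0.136) in deficient tumors. Psmg4, a chaperone of alpha ring assembly, was 7.45, 7.27 and 7.39 in normal samples, 8.82, 8.98, 7.27, 6.85 and 7.11 in control tumors and 9.13, 9.24, 9.39 and 9.43 in deficient tumors. Control tumors 1 and 2 sat close below the deficient tumors and the other 3 at or below the normal samples. The difference was 1.93 in deficient tumors (SE 0.442, adjusted p = 0.00416), 0.43 in control tumors (adjusted p = 0.503) and, with the block, 0.11 in deficient tumors (adjusted p = 0.795). Psmg1 and Psmg2 rose in both (0.62 and 0.91, then 0.58 and 0.85), and Psmg3 was not called. After both further normalizations Psmg1 lost its call in control (0.45 and 0.44) and in deficient tumors (0.26 and 0.25), and Psmg2 lost its call in deficient tumors (0.53 and 0.51). Psmf1, an inhibitor of the core, was 0.45 higher in deficient tumors (adjusted p = 0.0448), 0.12 after each further normalization and -0.03 with the block.

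In all, 24 alternatives of scaling, filter, model and left-out arrays were run for each tumor group against normal samples. The calls of 11 genes in control tumors (Psma1, Psma3, Psma4, Psmc1, Psmc6, Psmd1, Psmd10, Psmd12, Psmd14, Psme4 and Psmg2) and of 10 in deficient tumors (Psma1, Psma3, Psma4, Psmc6, Psmd1, Psmd7, Psmd10, Psmd12, Psmd14 and Psme4) held in all 24, and all of these were higher. No lower call held in all 24 in either comparison. Without control tumors 1 and 2, 20 of the 50 proteasome genes were higher in control tumors and none lower, where 25.4% of all genes were called, and Psmb9, Psme1, Psmd4 and Psmd9 lost their calls. With the 75th percentile as a block, 16 were higher in deficient tumors and none lower, where 18.4% of all genes were called. That fit takes the effect of the side from the control tumors alone, so it cannot tell side from group here.

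Deficient and control tumors were then compared with each other, which addresses what loss of Dnmt3a adds to the MYC tumors. None of the 50 genes was called (limma), where 0.818% of all genes were, and 13 had an unadjusted p under 0.05, where 20.2% of all genes did. The median difference over the 50 was 0.08, beside -0.01 over all genes. Psmb10, Psmd10 and Psmg4 were higher in every deficient tumor than in every control tumor and Psmd8 was lower in every one, where 3.80% and 2.35% of all genes did so (6.15% in either direction). Psmg4 differed by 1.50 (SE 0.389, 95% interval 0.66 to 2.33, adjusted p = 0.0861) and Psmd10 by 0.52 (95% interval 0.15 to 0.89, adjusted p = 0.136). For the genes with the largest rises the intervals were -0.45 to 0.38 for Psmc6 and -0.27 to 0.46 for Psmd14, and 0.05 to 0.97 for Psmd1 (adjusted p = 0.208).

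The count moved with the control arrays that entered it. Without control tumors 1 and 2, 16 of the 50 proteasome genes were called, 10 higher and 6 lower, where 25.3% of all genes were. The higher ones included Psmg4 (2.22), Psmb5 (1.60), Psmb3 (1.52) and Psmb10 (1.18), and the lower ones Psmc5 (-1.25), Psma7 (-0.83) and Psme1 (-0.83). Without control tumors 3, 4 and 5, so that both groups had a 75th percentile of 8.5 or above, none was called, and Psmb5 was at -0.26, Psmc5 at 0.07 and Psme1 at 0.42. In 29 of the 50 genes (58%) control tumors 1 and 2 both lay outside the range of control tumors 3, 4 and 5, where 46.6% of all genes did. In 18 of the 50 (36%) the 4 deficient tumors were also outside it on the same side, where 26.7% of all genes were. Of the 18, 10 lay above (Psmb2, Psmb3, Psmb4, Psmb5, Psmd1, Psmd10, Psme3, Psme4, Psmf1 and Psmg4) and 8 below (Psma7, Psmb6, Psmb11, Psmc2, Psmc3, Psmc5, Psmd6 and Psme1).

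**Figure D4:**
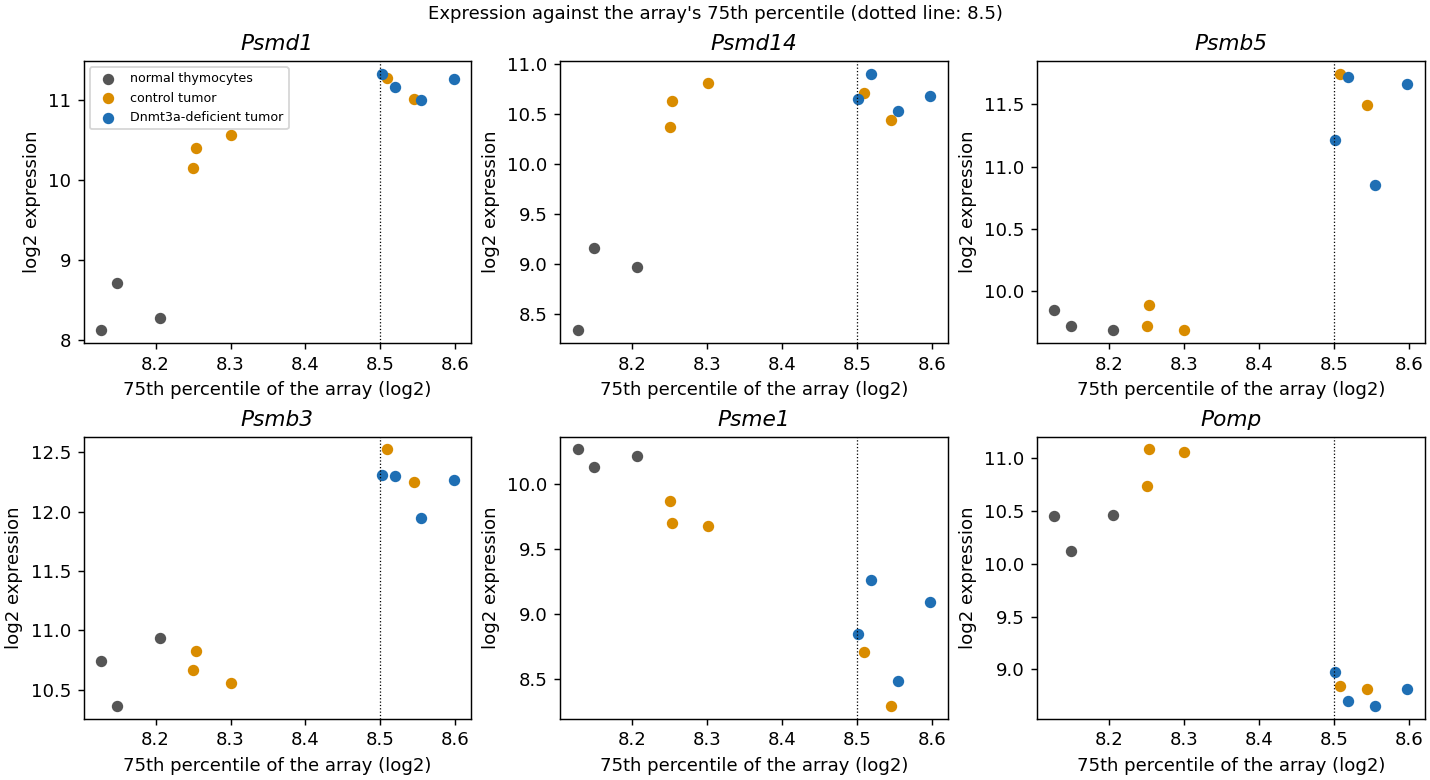
Log2 expression (y axis) of 5 proteasome genes and Pomp on each array against that array's 75th percentile of all values (x axis), with colours for the groups. The 6 arrays at 8.502 to 8.598 are the 4 deficient tumors and control tumors 1 and 2, and Psmb3 and Psmb5 are high and Psme1 and Pomp are low on all 6, while Psmd1 and Psmd14 are high on all 9 tumor arrays.

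Partners of the proteasome outside the name rule moved in both directions. The counts of this and the following gene lists stand beside 13.0% of all genes called higher and 11.3% lower in control tumors, and 18.7% and 19% in deficient tumors. Of 10 measured, 5 were higher and 1 lower in control tumors, and 6 were higher and 4 lower in deficient tumors. The deubiquitinases of the 19S particle rose, Usp14 by 2.22 and 2.62 and Uchl5 by 1.98 and 2.14, as did Ecpas, which tethers core and cap, by 2.22 and 2.42. Pomp, the maturation factor of the core, was 10.46, 10.45 and 10.12 in normal samples, 8.81, 8.84, 11.05, 11.08 and 10.73 in control tumors and 8.66, 8.98, 8.71 and 8.82 in deficient tumors. It was low on the 6 arrays with a 75th percentile of 8.5 or above and high on the other 6. Its difference was -1.55 in deficient tumors (adjusted p = 0.0294) and -0.24 in control tumors (adjusted p = 0.771). Of 9 ubiquitin supply and shuttle genes, 2 were higher in control tumors, and 4 were higher and 1 lower in deficient tumors, among them the ubiquitin-activating enzyme Uba6 (2.29 and 2.98). The 2 of 9 in control tumors is near the share of all genes.

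Of 10 genes of the NRF1 route, which raises proteasome transcription when the protease is short, 2 were higher and 3 lower in control tumors. The first count is within 1 gene of the share of all genes (13.0%), and the second is above it (11.3%). In deficient tumors 2 were higher and 2 lower, which is the share of all genes to within 1 gene. Nfe2l1, which encodes NRF1 itself, was not called (-0.30, adjusted p = 0.223, and -0.13, adjusted p = 0.598). Nfe2l2, its relative NRF2, was 8.16, 7.83 and 7.90 in normal samples, 9.43, 9.59, 8.40, 8.45 and 7.90 in control tumors and 9.69, 9.76, 9.77 and 9.99 in deficient tumors, with control tumors 1 and 2 near the deficient tumors. It was called in deficient tumors (1.84, adjusted p = 0.000799) and not in control tumors (0.79, adjusted p = 0.0878). The repressor Bach2 was lower in both (-1.97 and -2.15).

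Of 15 genes of interferon control measured, 2 were higher and 7 lower in control tumors, where 13.0% and 11.3% of all genes were, and none higher and 8 lower in deficient tumors, where 18.7% and 19% were. The interferon gamma receptor chain Ifngr1 was at -2.19 and -2.10, and Irf7 and Irf9, transcription factors of the interferon response, were at -2.05 and -1.38 in control and at -1.45 and -1.15 in deficient tumors. Irf1, which drives Psmb9, was 9.004, 8.99 and 8.89 in normal samples, 8.11, 7.93, 7.82, 7.93 and 7.97 in control tumors and 8.24, 9.08, 8.22 and 8.93 in deficient tumors. It was below the normal range in all control tumors (-1.01, adjusted p = 0.00189), and in deficient tumors, where 2 arrays were near the normal level, it was not called (-0.34, adjusted p = 0.202). The peptide-loading list had 5 of 12 higher and 4 lower in control tumors and 6 higher and 4 lower in deficient tumors. The transporter genes were among the lower: Tap1, which shares the interval printed above with Psmb9, was at -1.32 and -1.33 (adjusted p = 0.000112 and 9.64e-05), and Tap2 was at -1.03 and -1.10. The chaperone Tapbp was at -1.75 and -1.61, while the lectin chaperone Canx was 2.28 and 2.80 higher.

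Markers of other cells were set beside these values. The macrophage list averaged 6.49 to 6.79 in normal samples, 6.15 to 7.92 in control tumors and 6.89 to 7.72 in deficient tumors, with 1 and 3 of 12 genes higher. The dendritic cell list, whose cells carry much immunoproteasome, averaged 7.15 to 7.35 in normal samples, 6.45 to 7.09 in control tumors and 6.60 to 7.21 in deficient tumors, with 2 and 4 of 11 genes lower. The neutrophil list was at 7.70 to 7.86 in control tumors 3 and 4 and at 5.38 to 6.73 elsewhere, and the adipocyte list was at 8.71 in control tumor 2 and at 5.29 to 5.59 elsewhere. The B-cell list ran from 5.38 to 6.26 and the list for fibroblast and endothelium from 6.17 to 6.79 over all arrays. Without control tumors 3 and 4, Psmb9 and Psme1 kept their calls in control tumors. Without control tumor 2, Psmb9 kept its call and Psme1 lost it (-0.82, adjusted p = 0.089). The part of other cells in the differences was not tested.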

How the data were processed

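Total RNA of 12 thymus samples was measured on 1-colour arrays, whose number limits the precision. The log2 expression values were used as deposited by the authors. Per the submitters' processing notes they come from the RMA method of the Affymetrix Expression Console software, which subtracts background, equalises the distributions of the arrays and combines the probes of each set, and no version is stated. After such a step the quartiles of arrays are usually equal, while the 75th percentiles of these arrays differed, so other scalings were run as alternatives. Levels are relative to the other genes of an array and say nothing of RNA content per cell, and differences of dim genes are compressed.

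The platform annotation gave a single symbol for 20870 of 23858 probe sets, and the 1453 with several and 1535 without any were left out. One limma 3.58.1 model in R 4.3.3 with 3 group means was fitted to 19309 genes, with no filter on dim genes. Two-sided p-values were adjusted over all genes (Benjamini-Hochberg), with calls made under 0.05. The fit had 9 residual degrees of freedom and was tested on simulated data. Pair differences were tested with exact permutation tests over samples. Every array's value is given for the catalytic and 11S genes and for the 4 largest rises and 4 largest falls among the called genes of each contrast, and others were named by role. Of each list of other genes, at most 4 called genes per contrast are named. The values of Psmb3, Psmd8, Psmd10 and Psma3 were added after their values were seen. Promoter sequences are from RefSeq, assembly GRCm38.p6. The genes and lists were chosen with earlier results of these data known.

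Alternatives were other scalings, a filter on dim genes, other probe set rules, another variance model, fits of only the groups compared, the replicate number as a block, and left-out arrays. Leaving out control tumors 3, 4 and 5 together, and the 75th percentile of 8.5 or above as a block, were chosen after seeing the data.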

Additional observations from a re-analysis of the deposited data

Results flagged for a closer look

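Far values were looked for within the groups of 4 and 5 arrays, over 42 groups of values, and 2 were found. The search covered 16 proteasome genes, Dnmt3a, Pomp and the 3 pair differences. Psma3, Psmb3, Psmd8, Psmd10, Nfe2l2 and Irf1 were not searched. Chance alone puts about 1 in 20 groups past this limit. Psmc6, the base ATPase, was at 9.84 in control tumor 3, above the other 4 control tumors, of which the nearest was at 9.43. Dnmt3a was at 9.57 in control tumor 5, near the normal samples, where the nearest other control tumor was at 8.58.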

How the results depend on the processing

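The number of the 50 proteasome genes called in deficient against control tumors was 0, and became 1 with each array centred on its median, 1 without the dimmest 50% of genes, 1 with the replicate block, 16 without control tumors 1 and 2, and 0 to 5 when 1 array was left out (5 without control tumor 2 and 2 without control tumor 1). The 1 gene was Psmb10 each time. In deficient tumors against normal thymocytes the count fell from 30 to 16 with the 75th percentile as a block, where Psmb3 (-0.18), Psmb5 (-0.25), Psmc5 (0.23) and Psmf1 (-0.027) reversed. The effect of the block came from the control tumors alone, and the cause was not tested. When 1 array was left out, the counts against normal thymocytes were 17 to 23 in control and 24 to 31 in deficient tumors.

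Psmb9 minus Psmb6 in control tumors was -0.60 after a second quantile normalization and -0.52 after cyclic loess (exact permutation p = 0.0536 in both), -0.67 with the replicate block (limma, adjusted p = 0.0681), and -0.63 to -0.44 when 1 array was left out. In deficient against control tumors it was 0.30 to 0.62 when 1 array was left out. Psmb10 minus Psmb7 there was 0.72 after the quantile normalization, 1.16 without control tumors 1 and 2, 0.24 without control tumors 3, 4 and 5, and 0.61 to 0.96 when 1 array was left out. Psmb8 minus Psmb5 there was -1.71 without control tumors 1 and 2 and 0.55 without control tumors 3, 4 and 5. With only the groups compared in the fit, Dnmt3a was -0.82 in control tumors and -1.25 in deficient against control tumors, with adjusted p = 0.0656 and 0.105 (limma). When 1 array was left out they were -1.04 to -0.69 and -1.37 to -1.02.

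The labels do not say whether a replicate number is shared by samples. Correlations of same-numbered samples ran from -0.13 to 0.34 over 10 pairs. Differently numbered samples were not compared in this way, so these values cannot decide whether the numbers pair samples. The replicate block gave 22 and 29 calls against normal thymocytes.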

Other observations

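One further probe set carried the symbols of both Psme2 and Psme2b and was left out of the tests. It differed by -0.38 (SE 0.243) in control tumors and by 0.13 (SE 0.254) in deficient tumors from normal thymocytes.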
